A study of Mus musculus with 4 samples.

Results

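The metallothionein and zinc transporter genes described here are Mt1, Mt2, Mt3, Mtf1, Slc30a1 and Slc30a3, 6 of the 22911 genes that could be named on the array. They were chosen by symbol, after earlier results of the same contrast were known, so their own differences between the groups are given as a description with no test. A probe counted as theirs when its transcript accession belongs to one of these genes in RefSeq. This gave 9 of 56605 probes, and all 9 were well above background on all 4 arrays. Each was a single spot on each array. The arrays were hybridised with RNA of female mice, taken from the dorsal part of the hippocampus after a set of behavioural tests, from 2 control samples (replicates 2 and 3) and 2 samples of a 20-fold iodine intake group (replicates 2 and 3). Strain, age, and the form and length of the iodine exposure are not given in the sources used here. The labels do not say whether the replicates were separate mice, so the spread between them may be technical.

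Metallothioneins are small cysteine-rich proteins that bind zinc and copper and release them again. Mt1 and Mt2 are made in many tissues, in brain mainly in astrocytes, and are induced by metals, glucocorticoids, oxidants and cytokines, while Mt3 is the form typical of brain. MTF1 is the transcription factor that senses free zinc, binds metal response elements and switches on Mt1, Mt2 and Slc30a1. Slc30a1 encodes ZnT1, which carries zinc out of the cell, and Slc30a3 encodes ZnT3, which loads zinc into synaptic vesicles of glutamatergic neurons and is rich in hippocampal mossy fibres.

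The promoters of 3 neighbouring metallothionein genes and of Slc30a1 are shown because the first 2 genes differ most between the groups and all but Mt3 are classical MTF1 targets. In the RefSeq gene table (GRCm38.p6) Mt4, Mt3, Mt2 and Mt1 follow each other on chromosome 8 with no other protein-coding gene between them. Each window holds 250 bases before and 50 bases after the annotated start. It is taken from RefSeq (build GRCm38.p6), where all 6 genes had at least 1 window. Capitals mark the core of the metal response element, searched as TGCACNC or TGCGCNC on both strands.
Mt1 promoter window, chr8:94178839-94179138, plus strand: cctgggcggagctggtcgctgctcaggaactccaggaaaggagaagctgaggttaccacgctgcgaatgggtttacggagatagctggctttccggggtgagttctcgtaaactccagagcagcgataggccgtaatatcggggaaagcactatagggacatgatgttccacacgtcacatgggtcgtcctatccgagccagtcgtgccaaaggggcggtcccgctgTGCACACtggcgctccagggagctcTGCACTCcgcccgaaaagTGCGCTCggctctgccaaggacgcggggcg
Mt2 promoter window, chr8:94172368-94172667, plus strand: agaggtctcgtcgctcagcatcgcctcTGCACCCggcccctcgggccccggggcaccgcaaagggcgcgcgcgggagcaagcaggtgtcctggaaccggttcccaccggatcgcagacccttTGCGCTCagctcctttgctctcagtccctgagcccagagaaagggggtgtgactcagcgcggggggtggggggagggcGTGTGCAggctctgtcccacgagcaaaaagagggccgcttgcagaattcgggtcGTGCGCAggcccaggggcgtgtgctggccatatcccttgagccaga
Mt3 promoter window, chr8:94152357-94152656, plus strand: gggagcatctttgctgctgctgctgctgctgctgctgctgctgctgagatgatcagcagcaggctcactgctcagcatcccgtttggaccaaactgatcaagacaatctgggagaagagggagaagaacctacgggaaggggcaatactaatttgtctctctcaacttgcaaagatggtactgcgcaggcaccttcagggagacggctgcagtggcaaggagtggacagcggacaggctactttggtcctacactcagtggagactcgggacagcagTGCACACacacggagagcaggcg
Slc30a1 promoter window, chr1:191906531-191906830, plus strand: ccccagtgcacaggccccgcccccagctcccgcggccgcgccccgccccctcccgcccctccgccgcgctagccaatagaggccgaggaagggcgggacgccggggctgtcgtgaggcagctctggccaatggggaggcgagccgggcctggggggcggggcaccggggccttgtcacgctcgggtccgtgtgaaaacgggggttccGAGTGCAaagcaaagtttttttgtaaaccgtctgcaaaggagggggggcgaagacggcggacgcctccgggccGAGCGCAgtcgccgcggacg
The Mt1 window held 3 cores and the Mt2 window 4, against 1 in Mt3 and 2 in Slc30a1. Of 32851 promoter windows of this length, 25.7% held at least 1 core, 7.11% at least 2, 1.97% at least 3 and 0.518% at least 4. In Mt1 they began 23 bases before the annotated start and 2 and 20 bases after it. The annotated start need not be the one used in this tissue, and cores outside a window were not counted. In Mt2 they began 223, 128 and 50 bases before the start and 4 bases after it. The single core of Mt3 began 27 bases after its start. Mtf1 had 0 cores in its window, and Slc30a3 had 1 in the second of its 2 windows and 0 in the first. An antioxidant response element (TGACNNNGC, in 12.4% of windows) was matched once in Mt2 and once in Slc30a1. GC boxes (GGGCGG, in 35.7% of windows) numbered 3 in Mt1, 5 in Slc30a1, 2 in the first Slc30a3 window and 1 in Mtf1. One GC box of Mt1 shares its first base with the last base of a metal response element core. The full glucocorticoid response element (AGAACA and its reverse complement, 3 bases apart) and the E-box CACGTG were matched in none of these windows. They occur in 0.00913% and 7.15% of all windows. These are matches of letters in a short window and show no binding.

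**Figure D1:**
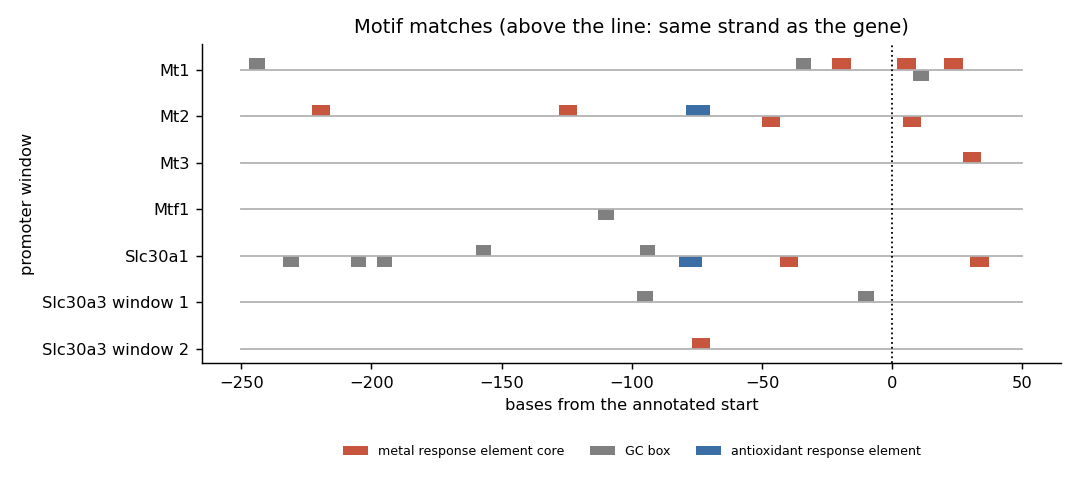
Motif matches in the promoter windows of the 6 genes, by distance in bases from the annotated start (dotted line); boxes above a line lie on the strand of the gene, and Slc30a3 has 2 annotated windows. Metal response element cores are most numerous in Mt2 (4) and Mt1 (3).

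Signals are log2 values of the background-subtracted spot signal, scaled so that the 75th percentile of each array is the same, and a probe's level is compared only with itself on other arrays. Levels of different probes do not compare. Mt2 and 1 of the 2 Mt1 probes had lower signals on both 20-fold iodine arrays than on both controls, while the groups overlapped in the other Mt1 probe, and Mt3, Mtf1, Slc30a1 and Slc30a3 had differences close to 0 or within the spread of their replicates. In whole-tissue RNA, fewer cells of a type and less RNA per cell cannot be told apart.

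Mt1, read by the probe of its main transcript (A_66_P111660, NM_013602), had log2 signals of 14.74 and 14.94 in control replicates 2 and 3 and of 14.55 and 14.35 in iodine replicates 2 and 3. Both iodine arrays lay below both controls, and the lowest control and the highest iodine array were 0.20 apart. The group means were 14.84 ± 0.14 and 14.45 ± 0.14 (SD, n = 2 each). The difference, iodine minus control, was -0.40 ± 0.12 (SE of the limma fit), which puts the iodine signal at 76.0% of control. The replicates of either group were themselves 0.20 apart.

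A second Mt1 probe, A_52_P423810, was designed on the predicted transcript XM_006530752 and was well above background on all 4 arrays. Its background-subtracted signals before scaling were 84.0 and 68.0 on the control arrays and 74.8 and 65.9 on the iodine arrays. On the log2 scale it stood at 6.33 and 6.06 on the control arrays and 6.24 and 6.11 on the iodine arrays. The groups overlapped, and the difference was -0.01 ± 0.13 (SE). The lower Mt1 signal therefore rests on 1 of the gene's 2 probes. Their mean gives -0.21 for the gene.

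Mt2 (A_51_P246317, NM_008630) had log2 signals of 14.08 and 14.47 in control replicates 2 and 3 and of 13.82 and 13.67 in iodine replicates 2 and 3. It is the gene next to Mt1 and is usually induced together with it. The order of the arrays was that of Mt1, with control replicate 3 highest and iodine replicate 3 lowest, and the groups were 0.25 apart. The means were 14.28 ± 0.28 and 13.75 ± 0.11 (SD, n = 2 each). The difference of -0.53 ± 0.17 (SE) puts iodine at 69.3% of control. Control replicate 3 carried much of it, being 0.40 above control replicate 2. Without that array the difference was -0.33, and without control replicate 2 it was -0.73.

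Mt3 (A_52_P320971, NM_013603), the brain metallothionein, had log2 signals of 10.96 and 11.30 on the control arrays and 11.17 and 11.18 on the iodine arrays. The iodine arrays differed by 0.01 and lay between the controls, which were 0.34 apart. The difference was 0.04 ± 0.14 (SE), with means of 11.13 ± 0.24 and 11.17 ± 0.01 (SD, n = 2 each). It was -0.13 without control replicate 2 and 0.21 without control replicate 3, so its sign turned with 1 control left out. The fourth gene of the cluster, Mt4, which is typical of stratified epithelia, was well above background on 0 of 4 arrays.

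Control replicate 3 exceeded control replicate 2 in the main probes of Mt1, Mt2 and Mt3 alike, by 0.20, 0.40 and 0.34. When each gene's deviations from its 4-array mean are taken relative to those of Mt3, Mt2 stood at 0.26 and 0.32 on the control arrays and at -0.20 and -0.37 on the iodine arrays. The difference between the groups was -0.57, and control replicate 3 was then 0.06 above control replicate 2. Mt1 relative to Mt3 stood at 0.29 and 0.15 on the control arrays and at -0.12 and -0.32 on the iodine arrays, a difference of -0.44, with control replicate 3 now 0.14 below control replicate 2. For Slc30a1 and Mtf1 the same step left the controls 0.22 and 0.44 apart, wider than before. By their main probes on these arrays, Mt1 and Mt2 differed from Mt3 between the groups, which does not show which of the genes changed. The second Mt1 probe, with a difference of -0.01 ± 0.13 (SE), was not set against Mt3. The comparison with Mt3 was chosen after the values were seen, so nothing is read from the closer controls.

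**Figure D2:**
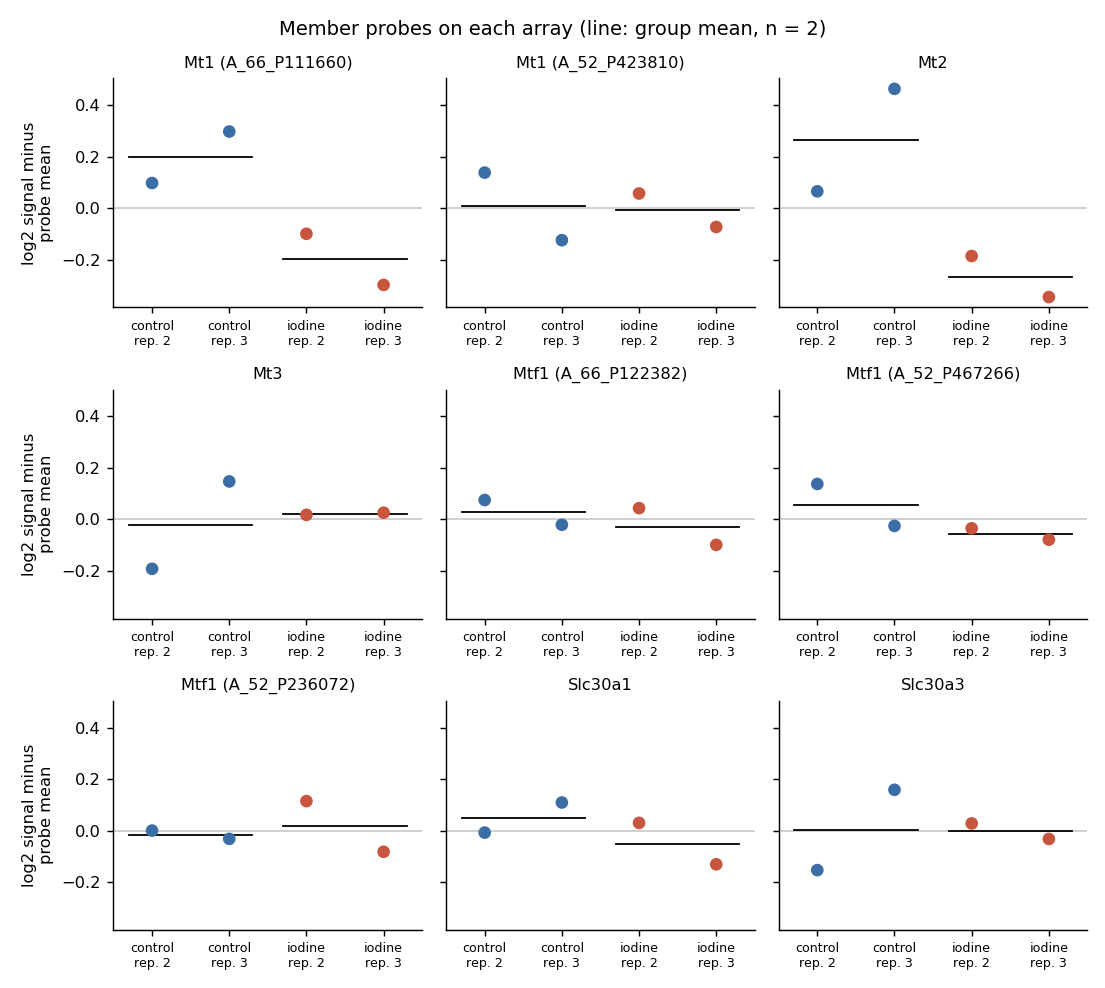
Log2 signal of each of the 9 probes on each array, as the deviation from that probe's 4-array mean (blue, control; red, 20-fold iodine; black line, group mean of 2 arrays). The main Mt1 probe (-0.40) and Mt2 (-0.53) show both iodine arrays below both controls, while Mt3 and Slc30a3 show the 2 controls on either side of the iodine arrays.

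Mtf1, the zinc-sensing regulator, was read by 3 probes of transcript NM_008636, and they did not show 1 direction. The brightest, A_66_P122382, had log2 signals of 9.42 and 9.32 on the control arrays and 9.38 and 9.24 on the iodine arrays, a difference of -0.05 ± 0.10 (SE) with overlapping groups. The second, A_52_P467266, had 7.51 and 7.35 on the control arrays and 7.34 and 7.29 on the iodine arrays. Its groups were apart by only 0.01, and its difference of -0.11 ± 0.10 (SE) was smaller than the 0.16 between its 2 controls. The third, A_52_P236072, had 5.77 and 5.74 on the control arrays and 5.89 and 5.69 on the iodine arrays, a difference of 0.03 ± 0.10 (SE). Leaving out single arrays moved the 3 differences over -0.13 to 0.02, -0.19 to -0.03 and -0.07 to 0.13. No Mtf1 probe separated the groups by more than its replicates differed.

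Slc30a1 (A_51_P300572, NM_009579), the exporter that MTF1 controls, had log2 signals of 8.04 and 8.15 on the control arrays and 8.07 and 7.91 on the iodine arrays. The groups overlapped through iodine replicate 2, which lay above control replicate 2. The difference was -0.10 ± 0.10 (SE), with means of 8.10 ± 0.08 and 7.99 ± 0.11 (SD, n = 2 each). It was -0.02 without iodine replicate 3 and -0.18 without iodine replicate 2.

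Slc30a3 (A_51_P420859, NM_011773), the vesicular zinc transporter, had log2 signals of 6.85 and 7.16 on the control arrays and 7.03 and 6.97 on the iodine arrays. As for Mt3, both iodine arrays lay between the controls, which were 0.31 apart. Its difference was -0.005 ± 0.13 (SE), with -0.16 when control replicate 2 was left out and 0.15 when control replicate 3 was. Among all pairs of the 6 genes, Slc30a3 and Mt3 had the most similar array profiles, with a Euclidean distance of 0.07 between their 4 deviations. Mtf1 and Slc30a1 were 0.16 apart, Slc30a1 and Slc30a3 0.18, and Mt1 and Mt2 0.20. The most distant pairs were Mt2 with Mtf1 and Mt2 with Mt3, both at 0.59.

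Of the 9 probes, 3 were lower in iodine with no overlap between the groups (33.3%), against 18.5% of all 38231 probes well above background on at least 2 arrays. None was higher without overlap, against 23.2% of all probes. Since this contrast was known when the genes were chosen, nothing is read from these shares. In 2 of the 9, the main Mt1 probe and Mt2, the difference between the groups exceeded both within-group gaps. The share of all probes meeting this was not counted, so nothing is read from it either. The arrangement of Mt1 and Mt2, with control replicate 3 highest, iodine replicate 3 lowest and the groups apart, was present in 5.07% of all probes. Over the whole array 0 of 38231 probes and 0 of 16794 genes passed limma's adjusted p of 0.05 (0% of either). At an unadjusted p under 0.05 there were 3448 probes (9.02%) and 1234 genes (7.35%).

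**Figure D3:**
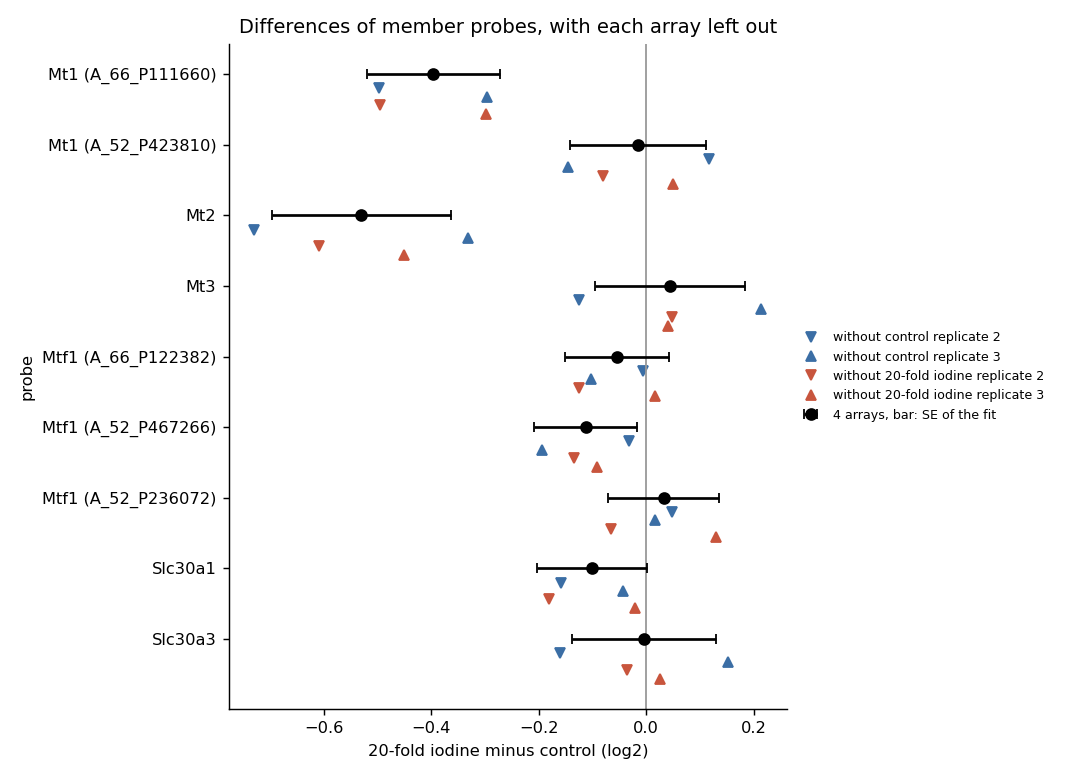
Difference between 20-fold iodine and control (log2) for each of the 9 probes, with the standard error of the fit over 4 arrays (black) and the difference without each array (coloured triangles). For Mt1 (A_66_P111660) and Mt2 all values lie below 0, while for the second Mt1 probe, Mt3 and Slc30a3 they lie on both sides of 0.

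By distance between array profiles, over 14897 genes detected on all 4 arrays, the genes most like Mt1 were F3, which encodes tissue factor, and Zfp189, a zinc finger gene (distances 0.05 each). F3 had a difference of -0.36 and Zfp189 of -0.40, and 17 genes lay within 0.1 of Mt1. Nearest to Mt2 were Celf3, an RNA-binding protein gene, and Spats1 (0.06 each), with differences of -0.51 and -0.53, and 6 genes within 0.1. Mt3 had Olfr1410 and Nxpe2 nearest (0.02 and 0.03), and Slc30a3 had Kcnip2, a potassium channel partner, and Ppic, a cyclophilin (0.02 and 0.03). Within 0.1 of Mt3 lay 121 genes, and within 0.1 of Slc30a3 lay 172. The flatter profiles of Slc30a1 and Mtf1 had 1017 and 1979 genes within 0.1. Nearest to them were Actb and Norad, and Phf20 and Dcaf6 (0.01 each). With 4 arrays these are descriptions of likeness only.

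Among the other zinc exporters of the SLC30 family, none passed limma's adjusted threshold. With Slc30a1 and Slc30a3 included, 9 of 10 family genes were measured, by 1 probe each (the brightest), and Slc30a8 was not well above background on enough arrays. Of the 9, 8 had a difference below 0 and 1 above, where 9128 of all 16794 genes were below 0. Their median was -0.10 against -0.01 over all genes, and 0 of the 9 had an unadjusted p under 0.05. The median was -0.15 without control replicate 2 and -0.04 without control replicate 3. The groups were apart in 2 lower and 1 higher genes, where 21.9% of all genes were lower and 17.9% higher without overlap. Slc30a10, a transporter known mainly for manganese export, was the 1 above 0, at 0.22 ± 0.13 (SE, limma adjusted p = 0.750), with 5.65 and 5.70 on the control arrays and 5.74 and 6.04 on the iodine arrays. Slc30a5, which supplies zinc to the early secretory pathway, had -0.12 ± 0.08 (limma adjusted p = 0.756), and its second probe had -0.12 too.

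The SLC39 family carries zinc into the cytosol. Of 14 genes, 13 were measured, 9 with a difference below 0 and 4 above, and 0 passed the adjusted threshold. Their median was -0.06, and -0.007 without control replicate 3 or -0.02 without iodine replicate 3. The groups were apart in 3 lower and 2 higher of the 13 genes, against 21.9% and 17.9% of all genes. Slc39a9, among the higher, had 0.18 ± 0.08 (SE, limma adjusted p = 0.696), with another probe at -0.56. Slc39a14, an importer of zinc, iron and manganese, had log2 signals of 8.00 and 8.06 on the control arrays and 7.85 and 7.78 on the iodine arrays, a difference of -0.21 ± 0.08 (SE, limma adjusted p = 0.675). Slc39a12, a zinc importer abundant in brain, had 8.47 and 8.40 on the control arrays and 8.25 and 8.22 on the iodine arrays, a difference of -0.20 ± 0.07 (limma adjusted p = 0.678). These 2 were the only genes of the family with an unadjusted p under 0.05 (0.046 and 0.048), which 7.35% of all genes had. Slc39a2 had -0.24 ± 0.12 (limma adjusted p = 0.728) at a low signal of 3.04 to 3.46.

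**Figure D4:**
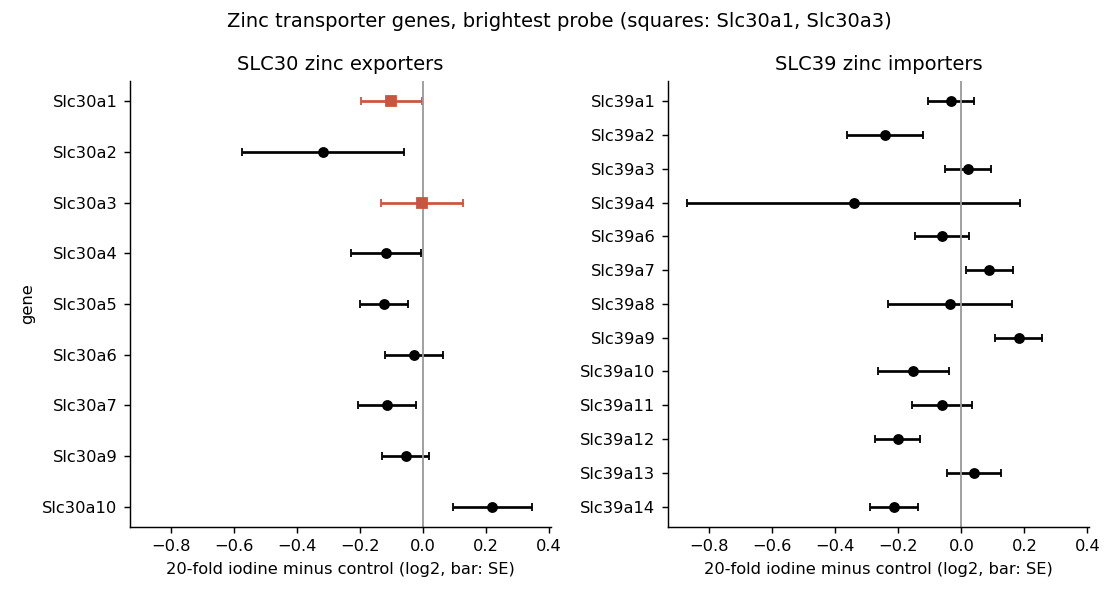
Difference between 20-fold iodine and control (log2, with SE) for the brightest probe of each measured SLC30 gene (left) and SLC39 gene (right); red squares mark Slc30a1 and Slc30a3. Most genes lie within 0.2 of 0, and Slc39a4 has the widest error bar.

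The list of Mtf1 and genes known as its targets had 10 of 10 measured, 4 with a difference above 0 and 6 below, and a median of -0.06, or -0.002 without iodine replicate 3. Its 6 genes besides Mt1, Mt2, Slc30a1 and Mtf1 had a median of 0.07, 2 of them below 0. Apart from Mt1 and Mt2 at -0.40 and -0.53, the members of the list stood between -0.15 and 0.16. Gclc, which makes the glutathione precursor, had -0.07, and Slc39a10, a zinc importer that MTF1 represses, had -0.15 with another probe at 0.37. Selenow, a selenoprotein gene, had 0.04, and Pgf, a placental growth factor gene, had 0.10 ± 0.07 (SE, limma adjusted p = 0.774). Copper handling genes, which serve another metal that metallothioneins bind, had a median of -0.07 over 12 genes. Of these, 11 were below 0 and 1 above, where 9128 of all 16794 genes were below 0. Under other scalings, corrections and filters the median ranged from -0.09 to -0.02. Slc31a2, a copper transporter, had the smallest p of that list at -0.18 ± 0.09 (limma adjusted p = 0.727, another probe at 0.09), followed by Ccs, the copper chaperone of superoxide dismutase, at -0.11 ± 0.09 (limma adjusted p = 0.798, another probe at 0.04).

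Other inducers of Mt1 and Mt2 have their own sets of genes. The glucocorticoid-induced list, which holds Mt1 and Mt2, had 16 of 17 genes below 0, against 9128 of all 16794 genes. In 10 of the 17 the groups were apart, where 21.9% of all genes were lower without overlap. The list's median of -0.40 is the value of Mt1 itself, and it was -0.22 without control replicate 2. Without Mt1 and Mt2 the median was -0.34 over 15 genes, 14 of them below 0 and 8 with the groups apart. Per1 had -0.48 ± 0.09 (SE) and Errfi1 -0.34 ± 0.09 (limma adjusted p = 0.668 for both). The list's median deviation by array was 0.29 and 0.03 in control replicates 2 and 3 and -0.19 on both iodine arrays. Mt1 and Mt2 were highest on control replicate 3. Most genes of the list were higher on control replicate 2 than on control replicate 3, such as Per1 with 10.88 and 10.74. Besides Mt1 and Mt2, only Errfi1 (9.46 and 9.52) and Pdk4 (6.14 and 6.44) had the other order. A link between the list and the values of Mt1 and Mt2 was not tested. NRF2 targets, which respond to oxidants, had a median of -0.06 over 10 genes, with Txnrd1 at -0.15 ± 0.07 (limma adjusted p = 0.728, another probe at -0.02). IL6-STAT3 and reactive glia genes had 7 of 14 below 0 and a median of 0.01. In that list Gfap, the astrocyte filament gene, had 0.29 ± 0.09 (limma adjusted p = 0.668, another probe at 0.55). Vim, another filament gene, had -0.30 ± 0.14 (limma adjusted p = 0.724). Among genes tied to synaptic zinc, Slc17a7, the vesicular glutamate transporter that shares vesicles with ZnT3, had 0.40 ± 0.08 (limma adjusted p = 0.668) beside the -0.005 of Slc30a3. Trpm7, a divalent cation channel, had -0.22 ± 0.07 (limma adjusted p = 0.668, another probe at 0.04), and the list's median was 0.03 over 7 genes.

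**Figure D5:**
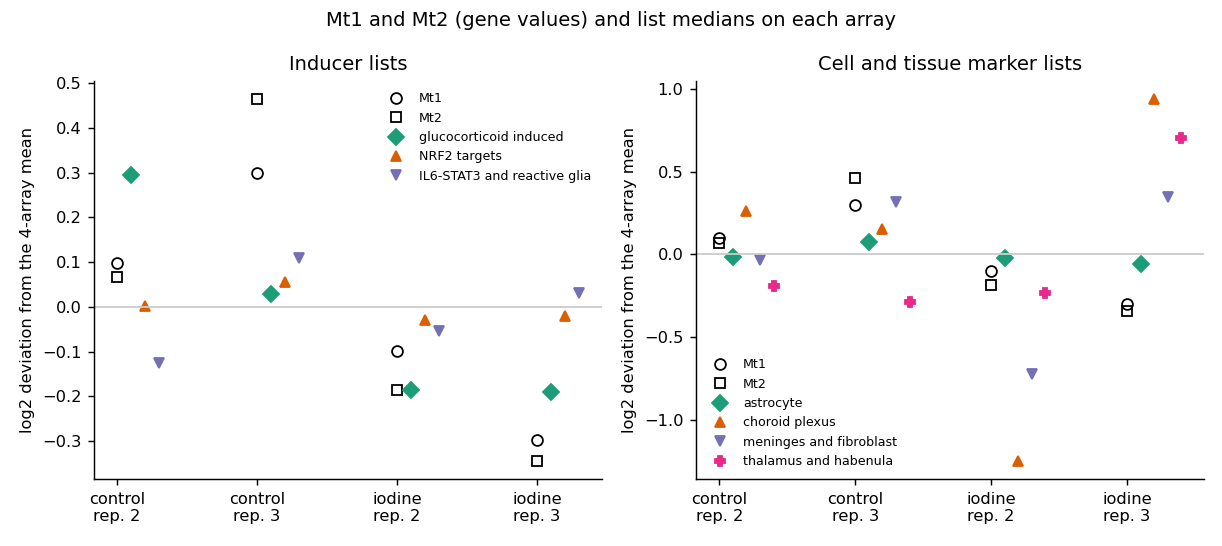
Deviation from the 4-array mean (log2) of Mt1 and Mt2 and the median deviation of gene lists on each array. The lists hold genes that respond to known inducers of Mt1 and Mt2 (left) or cell and tissue markers (right). The glucocorticoid list is highest on control replicate 2 (0.29), and choroid plexus markers are lowest on iodine replicate 2 (-1.25) and highest on iodine replicate 3 (0.94).

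All 8 neuronal, 8 dentate granule cell, 5 CA3 and mossy cell and 5 CA1 markers were measured. All 8 choroid plexus markers were measured too, so being measured does not tell the tissue. Drd2, on the CA3 and mossy cell list, was well above background on only 2 arrays. Of 12 astrocyte markers 9 had a difference below 0, and the median was -0.08. The groups were apart in 6 lower markers and in 2 higher ones, against 21.9% and 17.9% of all genes. The higher ones were Aqp4 (0.13) and Slc1a2 (0.13). The lower ones were Gjb6 (-0.41), Slc4a4 (-0.23), Aldoc (-0.18), Aldh1l1 (-0.17), Slc1a3 (-0.15) and Gja1 (-0.09, another probe at 0.42). The median deviation of the astrocyte markers by array was -0.01 and 0.08 on the control arrays and -0.02 and -0.06 on the iodine arrays. Control replicate 2 and iodine replicate 2 were thus close. The part of astrocytes in the Mt1 and Mt2 values was not tested. All 12 were measured. Choroid plexus markers, 8 of 8 measured, had median deviations of 0.26 and 0.15 on the control arrays and -1.25 and 0.94 on the iodine arrays. Mt1 and Mt2 were lowest on iodine replicate 3, the array with the most choroid plexus signal. The part of choroid plexus tissue in their values was not tested. Meningeal and fibroblast markers (8 of 8) had median deviations of -0.04 and 0.32 on the control arrays and -0.72 and 0.34 on the iodine arrays, and thalamus and habenula markers (5 of 6) stood highest on iodine replicate 3 at 0.70. Dentate granule cell markers had a median difference of 0.02.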

How the data were processed

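The 6 genes and all lists were chosen with earlier results of these data known. The authors deposited 4 Agilent 1-colour scanner files. Per the file headers these come from Agilent Feature Extraction, version 12.1.1.1. The deposited intensity used is the processed signal, background-subtracted and spatially detrended within an array per the file headers, and not normalized between arrays. All 4 arrays lay on 1 slide and in 1 scan, with controls in columns 1 and 2 and iodine in columns 3 and 4, so position and group cannot be told apart. Other flags, such as signal well above background, were used as the authors deposited them, and 0 spots were saturated. The 75th percentile of the signal was 144 to 159. Of 56605 probes, 37535 to 37921 were well above background per array. The repeated spots of a probe had a median coefficient of variation of 2.27 to 3.23%. The number of arrays limits the precision.

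Probes were named by RefSeq accession (58.3% named). Spots of a probe were averaged without outlier-flagged spots, log2 signals were scaled to the 75th percentile, and probes detected above background on 2 or more arrays were fitted with limma 3.58.1 in R 4.3.3 (lmFit and eBayes, two-sided, Benjamini-Hochberg over all probes, or over all genes by their brightest probe, threshold 0.05). The fit was tried on simulated data with the same spread for every probe and log2 changes of 1 and 2. It recovered 100 of 100 changed probes at either size, with 5 false calls. These changes are larger than any of the 6 genes, so the outcome says nothing about differences of their size. In the text are every probe of the 6 genes, the 2 genes of smallest p per list, SLC30 and SLC39 genes with groups apart and a difference of at least 0.2, and the 2 genes nearest each member. Some members of the MTF1, glucocorticoid and marker lists, Slc30a2, Slc39a4 and Slc39a9 were added after their values were seen. Alternatives were normexp (offset 50, on median spot signals, since the mean spot signal was not used here), quantile normalization, both, median scaling, other filters, variance trend, mean of probes, outlier spots kept, the replicate number as a block and each array left out. Same-numbered samples had deviations from their group means that correlated at -0.02 over 38231 probes. The labels do not pair them.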

Additional observations from a re-analysis of the deposited data

How the results depend on the processing

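The count of genes past the adjusted threshold was 0 under all 14 alternatives. The count of probes was 0 except with normexp background correction (21 probes) and with an intensity trend and robust variances (53 probes), and none of the probes called there belonged to the 6 genes. With the replicate block 0 probes passed, and 3031 had an unadjusted p under 0.05 against 3448 without it. The block leaves the differences as they are and changed no call. Without single arrays the adjusted counts were 0, and the probes with an unadjusted p under 0.05 numbered 2625 to 2970. A group left with 1 array is assumed there to vary like the other group. The main Mt1 probe kept its sign in all alternatives, ranging from -0.50 to -0.30 without single arrays and from -0.44 to -0.38 under other scalings and corrections, and the mean of both Mt1 probes gave -0.21. Mt2 ranged from -0.73 to -0.33 without single arrays and from -0.56 to -0.51 otherwise. The sign of the second Mt1 probe, Mt3, Slc30a3 and 2 of the 3 Mtf1 probes turned in at least 1 alternative, that of Slc30a1 in none (-0.18 to -0.02). Without single arrays the list medians ranged from -0.15 to -0.04 (SLC30), -0.09 to -0.007 (SLC39), -0.10 to -0.002 (MTF1 and targets), -0.08 to -0.04 (copper), -0.46 to -0.22 (glucocorticoid) and -0.08 to -0.03 (NRF2). Those of the reactive glia list (-0.11 to 0.11) and the synaptic zinc list (-0.03 to 0.10) turned sign.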

Other observations

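Slc39a4, the zinc importer of the intestine, had log2 signals of 6.61 and 6.69 on the control arrays and 5.56 and 7.06 in iodine replicates 2 and 3, a difference of -0.34 ± 0.53 (SE, limma adjusted p = 0.901). It was singled out after its values were seen, since its 2 iodine arrays lay on either side of both controls. Choroid plexus markers were likewise lowest on iodine replicate 2 and highest on iodine replicate 3, with median deviations of 0.26 and 0.15 on the control arrays and -1.25 and 0.94 on the iodine arrays. Ttr, the transthyretin gene, had 14.49 and 14.31 on the control arrays and 12.86 and 15.23 on the iodine arrays. A link between Slc39a4 and these markers was not tested. Slc30a2, a vesicular zinc exporter, was also lowest on iodine replicate 2 at 3.34 (difference -0.32 ± 0.26, SE, limma adjusted p = 0.798).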
